A study of Mus musculus with 9 samples.

Results

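The subunits of the mitochondrial respiratory chain and ATP synthase that are encoded in the nucleus were followed in glioblastoma cells and in the astrocytes they were grown with. The genes were chosen by name alone, as protein-coding genes of the Nduf, Sdh, Uqcr, Cox4 to Cox8 and Atp5 series together with Cyc1 and Cycs, which gave 86 of the 49315 genes in the count table. They were 35 subunits of complex I, 4 of complex II, 9 of complex III, cytochrome c, 20 of complex IV, 16 of complex V (ATP synthase) and Atp5s, whose name fits the series but whose product is a coupling factor and not a structural subunit. Ndufa4 and Ndufa4l2 were counted with complex IV, in which NDUFA4 sits despite its name.

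RNA had been sequenced from 3 groups of 3 libraries, described by the study as biological replicates sorted from separate co-cultures. The sources used here do not say whether a replicate number marks the same co-culture in each group. SB28, a single mouse glioblastoma cell line that expresses GFP, was grown for 2 days without further treatment with primary neonatal astrocytes of C57BL6 mito::mKate2 mice. These mice carry the red fluorescent protein mKate2 in their mitochondria through a targeting peptide of COX8, so red signal in a tumor cell marks mitochondria taken up from astrocytes. The cells were sorted into astrocytes, mKate2- SB28 cells and mKate2+ SB28 cells, and the study asked how tumor cells with and without astrocyte mitochondria differ. Total counts were 24454561 to 39287841 per library, of which the 86 genes took between 0.715% and 1.46%.

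Complexes I to IV pass electrons from NADH and succinate to oxygen. Complexes I, III and IV, but not II, pump protons across the inner mitochondrial membrane, and complex V uses the returning protons to make ATP. The mitochondrial genome encodes the central membrane subunits of complexes I, III, IV and V, while all of complex II, cytochrome c and most other subunits come from nuclear genes. Several complex IV subunits exist as paralogs that replace each other in particular tissues: COX4I2 is known from lung and other oxygen-sensing tissue, COX6B2 from testis, and COX6A2, COX7A1 and COX8B from heart and skeletal muscle. Levels of different genes are given below as CPM (counts scaled to the size of the library) per kb of exon after TMM scaling over all 9 libraries, and levels of the same gene as TMM-scaled CPM.

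A library that stood apart was found before the comparisons. In mKate2+ replicate 2 the 86 genes took 1.46% of the counts, against 0.967% and 1.02% in mKate2+ replicates 1 and 3 and 0.932% to 0.986% in the mKate2- libraries. Of the 78 subunits that passed the filter in SB28 cells (more than 1 CPM in 2 or more of them), 75 had their highest level of the 6 SB28 libraries in mKate2+ replicate 2 and 1 its lowest. Among all 11854 genes tested, 32.2% were highest and 33.2% lowest there. Fold changes and counts of calls for mKate2+ cells against astrocytes, and the main values between the tumor groups, are therefore also given without it.

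Several complex IV paralogs were at low levels or at 0 in SB28 cells of both kinds. Cox6b2, Cox4i2 and Cox7a1 passed the filter on low counts only through the astrocyte libraries (Cox7a1 through 2 of them), since all their SB28 values were under 1 CPM. They thus entered the tests through the group in which they were higher, and were not tested between the tumor groups. Upstream sequences of Cox6b2 and Cox7a1, which were among the paralogs that differed, of Cox6b1 and Cox7a2, their partners that were not called, and of Cycs, the subunit gene with the largest rise, are shown for reference. They are the 200 bases before the more upstream of the RefSeq and GENCODE starts, written in the direction of transcription, from RefSeq windows of the build GRCm38.p6. Capitals mark matches to the cyclic AMP response element (TGACGTCA) and to NRF1 letters (GCATGCGC) in Cycs, and to the SP1 letters GGGCGGG in Cox6b2.
Cycs (chr6:50566570-50566769, minus strand): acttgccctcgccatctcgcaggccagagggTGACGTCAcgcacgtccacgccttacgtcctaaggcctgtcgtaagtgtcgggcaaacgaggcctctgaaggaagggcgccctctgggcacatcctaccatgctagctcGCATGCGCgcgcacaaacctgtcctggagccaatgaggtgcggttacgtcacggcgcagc
Cox6b1 (chr7:30626152-30626351, minus strand): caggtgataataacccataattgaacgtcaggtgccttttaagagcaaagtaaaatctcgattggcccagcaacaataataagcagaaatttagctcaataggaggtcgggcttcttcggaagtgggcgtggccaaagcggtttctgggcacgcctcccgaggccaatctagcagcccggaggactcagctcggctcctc
Cox6b2 (chr7:4753095-4753294, minus strand): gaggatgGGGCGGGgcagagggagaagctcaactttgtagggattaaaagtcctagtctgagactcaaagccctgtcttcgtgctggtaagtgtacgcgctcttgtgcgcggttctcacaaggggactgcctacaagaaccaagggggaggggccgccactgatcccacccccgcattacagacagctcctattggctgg
Cox7a1 (chr7:30183944-30184143, plus strand): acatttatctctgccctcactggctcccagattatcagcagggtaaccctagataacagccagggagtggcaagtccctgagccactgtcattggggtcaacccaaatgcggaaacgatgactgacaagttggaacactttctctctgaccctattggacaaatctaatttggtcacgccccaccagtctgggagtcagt
Cox7a2 (chr9:79759879-79760078, minus strand): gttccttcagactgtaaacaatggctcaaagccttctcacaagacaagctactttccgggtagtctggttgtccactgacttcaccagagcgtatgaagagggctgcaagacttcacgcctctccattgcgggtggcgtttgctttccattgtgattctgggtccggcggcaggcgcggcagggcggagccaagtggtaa

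RefSeq windows of 300 bases, from 250 before to 50 after the start, were listed for 67 of the 86 genes (72 windows). Letters bound by known regulators of respiratory genes were counted on both strands of each window. The letters of NRF1 and YY1 were shortened after a first count. The NRF1 letters GCGCATGC were in 15.3% of the subunit windows, 2.71% of all 32851 windows and 5.18% of the 12533 windows of genes expressed here. The 11 genes with them were Atp5g2, Atp5k, Atp5l, Cox6a1, Cycs, Ndufa6, Ndufa8, Ndufa11, Sdhb, Uqcr11 and Uqcrc1, from every complex and cytochrome c. The YY1 letters AAGATGGCG were in 9.72%, 1.40% and 2.93% of the same sets, in the windows of Atp5j, Atp5j2, Ndufa9, Ndufc1, Ndufs4, Ndufs6 and Ndufs7. The ETS letters CCGGAAG were in 22.2%, 8.86% and 17.1%, and the letters TGACGTCA in 6.94%, 1.79% and 3.07%. For the other motifs the side depended on the reference. SP1 letters were in 31.9% of subunit windows, 25.6% of all windows and 47.1% of windows of expressed genes, and the TATA letters TATAAA in 11.1%, 13.6% and 6.74%. None of the 6 motifs contains another, although ETS and YY1 letters can share AAG, and a match describes the sequence without showing that a factor binds there. Another protein-coding gene started within 1000 bases upstream on the opposite strand for 19 of the 86 genes (22.1%), against 10.3% of 12352 expressed protein-coding genes, with Ndufa7 and Rps28 only 10 bases apart.

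COX6B lies on the outer face of complex IV, where its dimer forms. Cox6b2 (chr7:4751792-4753094, minus strand) was at 21.4, 28.3 and 24.6 CPM in astrocyte replicates 1 to 3. It was at 0.111, 0.114 and 0.233 CPM in mKate2- cells and at 0.197, 0.930 and 0.269 CPM in mKate2+ cells. All 6 SB28 libraries therefore lay far below all 3 astrocyte libraries. The log2 fold change was -7.38 ± 0.30 (SE) in mKate2- cells (adjusted P = 4.48e-06, edgeR's quasi-likelihood test with Benjamini-Hochberg adjustment over all genes tested). It was -5.79 ± 0.53 in mKate2+ cells (adjusted P = 9.83e-05) and -6.77 without mKate2+ replicate 2. The partner Cox6b1 was at 51.1 ± 10.6 CPM in astrocytes (SD, n = 3) and 48.0 ± 5.52 CPM in mKate2- cells, and was not called (log2 fold change -0.17 ± 0.17, adjusted P = 0.425).

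Per kb of exon, Cox6b2 made up 17.9%, 27.1% and 27.2% of the COX6B mRNA in the astrocyte libraries. In SB28 cells it made up at most 0.371%. With the length of the principal transcript instead of all exons, the share in astrocytes was 34.3%, so the share depends on the length used while the contrast between cell types does not.

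The oxygen-sensing paralog Cox4i2 (chr2:152754173-152765037, plus strand) was at 5.38, 1.81 and 1.92 CPM in astrocytes. Its counts were 2, 0 and 3 in mKate2- cells and 6, 3 and 1 in mKate2+ cells, against 136, 63 and 72 in astrocytes. The log2 fold change was -5.75 ± 0.85 in mKate2- cells (adjusted P = 0.000692) and -5.00 ± 0.73 in mKate2+ cells (adjusted P = 0.000813), by the same edgeR test, or -4.91 without mKate2+ replicate 2. Even in astrocytes Cox4i2 was a minor form, with 3.20%, 1.28% and 1.79% of the COX4 mRNA per kb, and the ubiquitous Cox4i1 made up the rest. Cox4i1 was at 267 ± 56.3 CPM in astrocytes and 297 ± 31.9 CPM in mKate2- cells, a difference that was not called (adjusted P = 0.705, edgeR).

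Cox7a1 (chr7:30184144-30186078, plus strand), the muscle form of COX7A, was at 1.30, 1.49 and 0.534 CPM in astrocytes. It was at 0.0371, 0.114 and 0.267 CPM in mKate2- cells and 0.141, 0.254 and 0.209 CPM in mKate2+ cells, so the groups did not overlap. The log2 fold change was -3.01 ± 0.70 in mKate2- cells (adjusted P = 0.00630) and -2.51 ± 0.55 in mKate2+ cells (adjusted P = 0.00556; -2.69 without replicate 2) by edgeR's test, from counts of only 20 to 52 per astrocyte library. Cox7a2, the general form, was at 40.5 to 52.7 CPM in astrocytes and 38.1 to 50.7 CPM in mKate2- cells and was not called (adjusted P = 0.271, edgeR). Cox7a2l, counted here with the COX7A family, was at 222, 184 and 132 CPM in astrocytes and 104, 118 and 110 CPM in mKate2- cells. It fell, with a log2 fold change of -0.77 ± 0.19 in mKate2- cells (adjusted P = 0.00762) and -0.63 ± 0.21 in mKate2+ cells (adjusted P = 0.0316), by edgeR, or -0.76 without replicate 2.

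**Figure D1:**
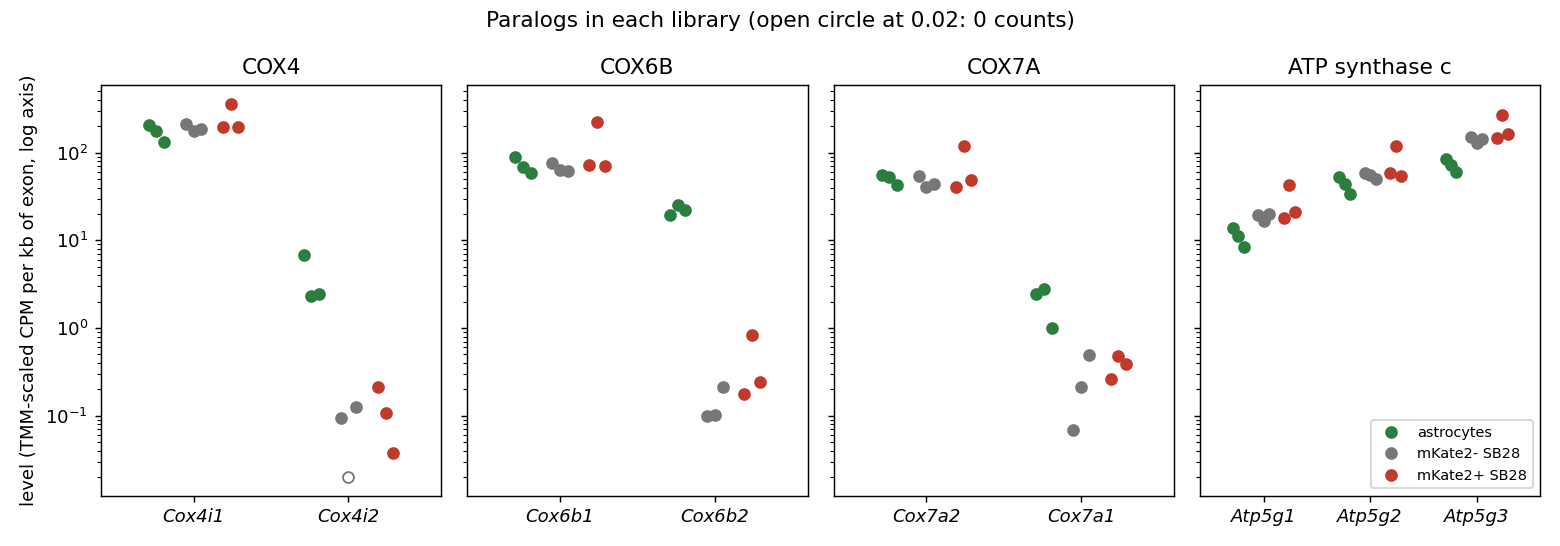
Level of paralogous subunits in each of the 9 libraries, in TMM-scaled CPM per kb of exon on a log axis, with 1 point per library, grouped as astrocytes, mKate2- SB28 and mKate2+ SB28. Cox4i2, Cox6b2 and Cox7a1 lie lower in all 6 SB28 libraries than in any astrocyte library, and the point highest for most other genes is mKate2+ replicate 2.

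The remaining tissue forms were at or near 0. Cox7b2, Cox8b and Cox8c had 0 counts in all 9 libraries, which allows up to 0.0325 CPM over the astrocyte libraries (3 counts of their summed total; this limit covers counting error only). Cox6a2 had at most 1 count per library. Ndufa4l2, a hypoxia-induced relative of Ndufa4, had 22 counts over the 3 astrocyte libraries, 9 over the mKate2- libraries and 4 over the mKate2+ libraries, and it did not pass the filter. Cox6a1, Cox7b and Cox8a thus made up nearly all of their families. Of these, Cox6a1 fell in mKate2- cells (log2 fold change -0.59 ± 0.18, adjusted P = 0.0188, edgeR), although not after removal of a GC content trend (-0.11, adjusted P = 0.494). In a fit to all 9 libraries its call was lost with a fold change about as large (-0.60, adjusted P = 0.187, edgeR). Cox7b rose (0.69 ± 0.15, adjusted P = 0.00492, edgeR). Its call was lost after removal of the GC trend (0.39, adjusted P = 0.0682), and in a fit to all 9 libraries with a fold change about as large (0.69, adjusted P = 0.159). Cox8a was at 0.39 ± 0.16 (adjusted P = 0.0603), and was called with replicate number as a block.

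The astrocyte libraries were checked for other cells, since paralog forms differ by cell type. Of 13 tested astrocyte markers, 11 were lower and 1 (Gja1, 0.43 ± 0.12) higher in mKate2- cells than in astrocytes, and the summed level of the 15 listed was 1222, 1185 and 1917 CPM in astrocyte replicates 1 to 3. It was 511 to 568 CPM in mKate2- cells and 524 to 598 CPM in mKate2+ cells, where Gja1, the most abundant gene of the list, was itself at 267 and 289 CPM on average. Slc1a3 was at 185 CPM in astrocytes and 1.48 CPM in mKate2- cells, and Aldh1l1 at 134 and 7.34 CPM. The defining marker Ntsr2 was at 0.187 CPM in astrocytes and at 0 in all SB28 libraries. Oligodendrocyte lineage markers (10 listed) also moved with the comparison, at 951, 509 and 574 CPM in astrocyte replicates 1 to 3 and 39.4 to 49.0 CPM in SB28 libraries, led by Olig1, with Sox10, Mog and Mag near 0 throughout. In mKate2- cells 4 of 6 tested were lower and 0 higher. All counts of markers called in mKate2- cells stand beside 29.3% of all genes higher and 33.8% lower. Between the tumor groups only 10 astrocyte, 2 neuron, 1 microglia and 0 ependymal markers passed the filter, fewer than against astrocytes. Some markers thus entered the tests through the astrocyte libraries, the group in which they were higher, which limits what the counts of lower markers show. Pericyte and smooth muscle markers (9 listed, led by Pdgfrb) were at 191, 225 and 352 CPM in astrocytes and 51.7 to 76.2 CPM in SB28 libraries, with Higd1b at 0 in astrocytes. Ependymal markers (5 listed, led by Foxj1) were at 11.8, 9.19 and 76.3 CPM in astrocytes and under 1 CPM in SB28 libraries. Endothelial markers (5 listed, led by Cdh5) were at 1.86, 1.87 and 6.65 CPM in astrocytes and 0.891 to 1.70 CPM in SB28 libraries. The 1 tested was not called in mKate2- cells (log2 fold change -1.67). Fibroblast markers (5 listed, led by Col1a2) were at 1317, 1365 and 973 CPM in astrocytes and 603 to 885 CPM in SB28 libraries. Of 3 tested, Col1a2 was lower and Col3a1 higher in both tumor groups, and Col1a1 was lower in mKate2+ cells, where the count of lower markers went from 2 to 1 without replicate 2, while Dcn and Lum were near 0 in SB28 cells. Neuron markers (8 listed, led by Tubb3) were at 27.8, 58.2 and 55.6 CPM in astrocytes and 19.9 to 29.7 CPM in SB28 libraries, with 4 of 6 tested lower and 1 higher in mKate2- cells and Rbfox3 at 0 in all libraries. Microglia markers (10 listed) were at 27.3 to 39.4 CPM in astrocytes and 48.0 to 67.8 CPM in SB28 libraries, nearly all of it Tmem119. Tmem119 was higher in mKate2- cells and P2ry12, at 1.29 CPM on average in astrocytes, was lower. Striated muscle markers (7 listed, led by Tnnt2) were at 55.7, 49.9 and 42.6 CPM in astrocytes and 110 to 158 CPM in SB28 libraries. Of the 5 tested, 4 had a positive log2 fold change in mKate2- cells (median 0.11). In mKate2+ cells 1 had (median -0.21, or 0.37 without replicate 2). Of 5 tested, Tnnt2 was higher in mKate2- cells and 4 were not called, with Ckm at 0.260 CPM and Myog at 0 in astrocytes. The part of these cell types in the paralog differences was not tested, and in sorted bulk RNA fewer cells of a type and less RNA per cell cannot be told apart.

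Over all genes of the rule, mKate2- cells had calls in both directions against astrocytes. Of 81 tested, with the tissue paralogs Cox6b2, Cox4i2 and Cox7a1 among them, 15 were higher and 11 lower at an adjusted P value below 0.05, while 55 were not called. Of all 13356 genes tested, 29.3% were higher and 33.8% lower, so both counts were below the background share. All 3 mKate2- libraries lay above all 3 astrocyte libraries for 23 subunits and below them for 10, beside 37.3% and 34.4% of all genes. The median log2 fold change of the subunits was 0.07, against -0.04 for all genes. Its sign was not stable, since it was -0.01 with upper-quartile normalization, -0.18 after removal of a transcript length trend and -0.07 without astrocyte replicate 3. The count of lower subunits moved too, to 29 after removal of the transcript length trend and to 17 after removal of a trend in exonic length, beside 34.9% and 34.4% of all genes. Only Cycs rose and Cox6b2, Cox4i2 and Cox7a1 fell beyond 2-fold (backgrounds 11.5% higher and 22.4% lower). Astrocyte replicate 1 held more subunit mRNA than astrocyte replicate 3 (0.942% against 0.715% of counts), and without replicate 1 the calls were 24 higher and 7 lower, beside 31.7% and 34.7% of all genes.

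**Figure D2:**
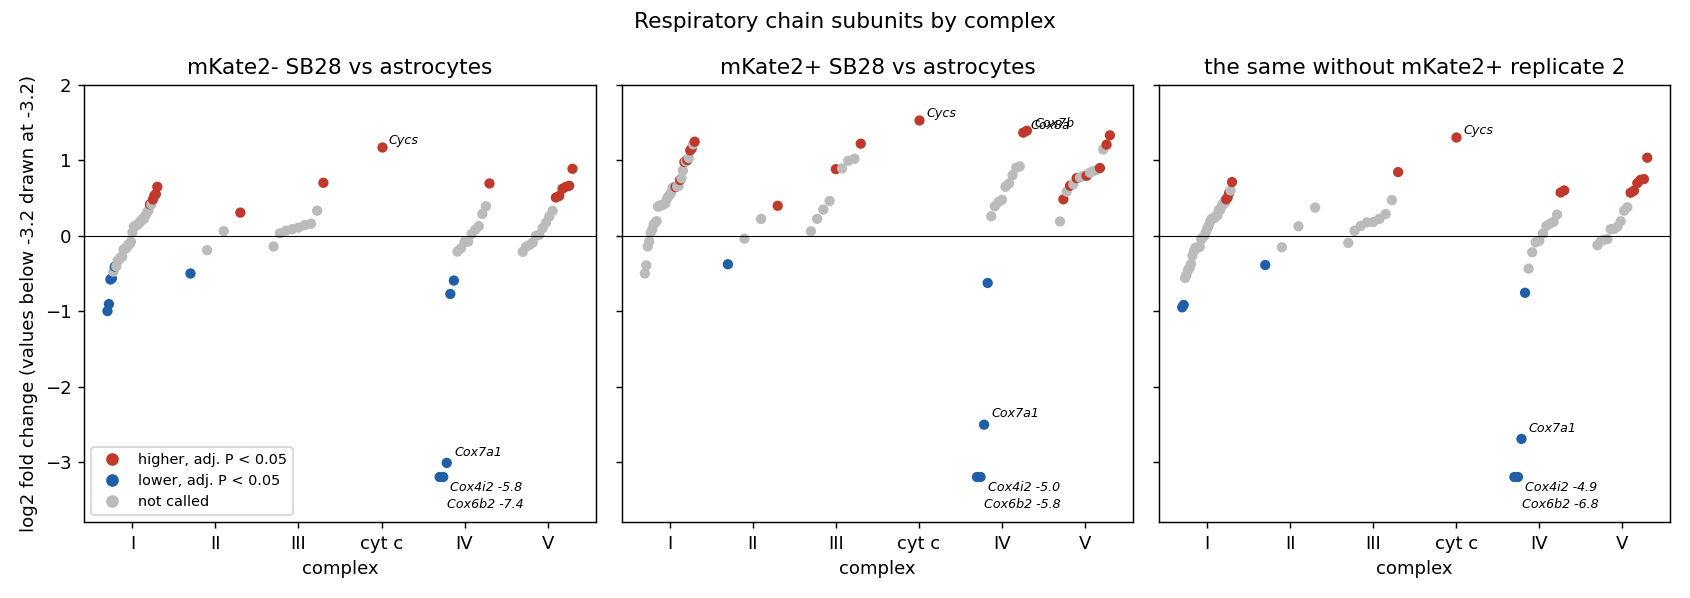
Log2 fold change of each tested subunit against astrocytes, by complex, in mKate2- cells, mKate2+ cells and mKate2+ cells without replicate 2, with 1 point per gene and red and blue points called higher and lower at an adjusted P value below 0.05 by edgeR. Complex V has red points and no blue ones in the 3 panels, Cycs is the highest point in each, and Cox6b2, Cox4i2 and Cox7a1 are the lowest.

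Cytochrome c and the complex III subunit next to it in the chain rose in both tumor groups. Cycs, the mobile electron carrier between complexes III and IV (chr6:50562563-50566538, minus strand), was at 71.9, 70.3 and 55.9 CPM in astrocytes. It was at 170, 141 and 158 CPM in mKate2- cells and 163, 261 and 176 CPM in mKate2+ cells, above every astrocyte library. The log2 fold change was 1.17 ± 0.14 in mKate2- cells (adjusted P = 0.000217, edgeR) and 1.53 ± 0.20 in mKate2+ cells (adjusted P = 0.000513), or 1.30 without replicate 2. Of the 100-base stretches of the Cycs transcript, 24.7% also occur in other annotated genes, and the one that shares most, Gm10053, had 124 counts over all libraries against 41600 for Cycs. Cyc1, the complex III subunit that hands electrons to cytochrome c, was at 154, 127 and 111 CPM in astrocytes, 232, 204 and 236 CPM in mKate2- cells and 229, 270 and 259 CPM in mKate2+ cells. It rose, with a log2 fold change of 0.70 ± 0.15 in mKate2- cells (adjusted P = 0.00383, edgeR) and 0.88 ± 0.15 in mKate2+ cells (adjusted P = 0.00176), or 0.84 without replicate 2. The testis cytochrome c, Cyct, had no counts. In mKate2- cells Cyc1 was the 1 called member of the 9 in complex III, below the 29.3% of all genes called higher and 33.8% called lower. In mKate2+ cells Uqcr10 was called as well (1.22 ± 0.44, adjusted P = 0.0451, edgeR), but not without replicate 2 (0.47, adjusted P = 0.0826). Of all genes, 28% and 26.1% were called higher with and without that library. In mKate2- cells the Rieske protein gene Uqcrfs1 (0.03 ± 0.13) and the core proteins Uqcrc1 (0.16 ± 0.18) and Uqcrc2 (0.07 ± 0.10) were not called.

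In complex V, 6 of 16 subunits were higher in mKate2- cells and 0 were lower (median log2 fold change 0.21), beside 29.3% and 33.8% of all genes tested. In the catalytic F1 part, Atp5a1, the alpha subunit, was at 1020, 887 and 794 CPM in astrocytes and 1403, 1507 and 1546 CPM in mKate2- cells (log2 fold change 0.65 ± 0.14, adjusted P = 0.00394, edgeR). The gamma subunit Atp5c1, the central shaft, rose by 0.53 ± 0.13. Atp5b, the beta subunit, had a log2 fold change of 0.33 ± 0.13 and missed the threshold (adjusted P = 0.0532, edgeR), although all 3 mKate2- libraries lay above all 3 astrocyte libraries. Of the peripheral stalk, which holds F1 still, Atp5f1 (0.62 ± 0.11) and Atp5o (0.51 ± 0.16) rose, and Atp5h and Atp5j were not called.

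The c-ring, the rotor of ATP synthase, is built from 1 mature protein that 3 genes encode. Atp5g3 was at 183, 160 and 131 CPM in astrocytes and 328, 280 and 317 CPM in mKate2- cells (log2 fold change 0.89 ± 0.15, adjusted P = 0.00126, edgeR). Atp5g1 rose by 0.66 ± 0.18 (adjusted P = 0.0146, edgeR), and Atp5g2 was at 0.25 ± 0.17 (adjusted P = 0.215). The Atp5g1 call was lost in a fit to all 9 libraries with a fold change about as large (0.66, adjusted P = 0.0786, edgeR). Per kb of exon, the share of Atp5g3 in the 3 was 57.3% ± 1.44 in astrocytes and 65.9% ± 1.75 in mKate2- cells (SD, n = 3), and that of Atp5g2 was 34.0% ± 0.964 and 25.4% ± 2.20. The shares did not overlap between these groups. Atp5g2 values are uncertain, because 86.4% of the 100-base stretches of its principal transcript also occur in transcripts of other annotated genes.

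Of complex I subunits, 5 of 35 were higher and 5 lower in mKate2- cells, below the 29.3% and 33.8% of all genes, with a median log2 fold change of 0.04. The higher ones were Ndufb8 (0.65 ± 0.16), Ndufb7, Ndufb6 and Ndufb9 of the membrane arm and Ndufa9 at the joint of the arms. Ndufb8 was at 68.6, 60.5 and 49.4 CPM in astrocytes and 114, 89.0 and 91.4 CPM in mKate2- cells. The lower ones were Ndufb11 (-0.999 ± 0.165, adjusted P = 0.00122, edgeR), Ndufv3 (-0.91 ± 0.16, adjusted P = 0.00149), Ndufs6, Ndufa1 and Ndufs4. Ndufb11, an X-linked membrane arm subunit, was at 65.9, 48.9 and 45.5 CPM in astrocytes and 30.3, 27.6 and 26.6 CPM in mKate2- cells, and the groups did not overlap. Ndufv3, an accessory subunit of the NADH-oxidising tip, was at 63.6, 49.8 and 47.7 CPM in astrocytes and 26.7, 33.5 and 30.3 CPM in mKate2- cells. In the N module, which oxidises NADH, 3 of 10 subunits fell and 0 rose, and in the Q module, which reduces ubiquinone, 0 of 5 were called. The share that fell in the N module was near the 33.8% of all genes. The 7 nuclear core subunits that carry the flavin and iron-sulfur clusters held no call, with Ndufs8 at 0.33.

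Complex II, the succinate dehydrogenase shared with the TCA cycle, had 1 of its 4 subunits higher and 1 lower in mKate2- cells, shares below those of all genes (29.3% and 33.8%). Sdha, the flavoprotein, was at 375, 328 and 327 CPM in astrocytes and 237, 260 and 270 CPM in mKate2- cells. It fell by log2 values of -0.50 ± 0.11 (adjusted P = 0.00566, edgeR) in mKate2- cells and -0.38 ± 0.12 in mKate2+ cells (adjusted P = 0.0231), or -0.39 without replicate 2. The mKate2+ call was lost with replicate number as a block (-0.38, adjusted P = 0.0647, edgeR) and without a filter on low counts (-0.32, adjusted P = 0.129). The membrane anchor Sdhd was at 0.31 ± 0.12 with an adjusted P of 0.0492, a call that was lost under most alternatives. Sdhb and Sdhc were not called.

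Levels per kb of exon differed widely among subunits of 1 complex. Atp5a1 was highest in complex V in astrocytes, at 287 ± 36.1 CPM per kb (SD, n = 3), close to Atp5b at 285 ± 30.2, and Atp5l was lowest at 4.47 ± 0.368. In complex I the lowest was Ndufb2, at 2.65 ± 0.468 CPM per kb. That rank rests on its assigned length, since before division by length Ndufb2 was at 14.9 CPM in astrocytes, above Ndufa1 at 10.6 CPM. The medians in astrocytes were 25.1 CPM per kb for complex I, 66.9 for complex II and 45.6 for complex III. Ndufa8 led complex I in mKate2- cells at 108 ± 10.6 CPM per kb. These levels depend on the exon length assigned: with the principal transcript, Atp5b was above Atp5a1 in astrocytes, at 630 against 364 CPM per kb. Atp5l then was at 53.0 CPM per kb in astrocytes, and 61.3% of its transcript is shared with other annotated genes.

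Against astrocytes, mKate2+ cells had 20 subunits called higher and 5 lower of 81, beside backgrounds of 28% and 32.1%, with a median log2 fold change of 0.64. Dropping mKate2+ replicate 2 left 14 higher and 7 lower, beside 26.1% and 29.9%, and a median of 0.13. All 3 mKate2+ libraries lay above all 3 astrocyte libraries for 31 subunits and below them for 4, beside 35.9% and 33.3% of all genes. Beyond 2-fold, 10 were higher with that library and 2 without it (backgrounds 12.2% and 11.9%), and the 3 lower ones were Cox6b2, Cox4i2 and Cox7a1 in both (backgrounds 22.8% and 22.2%). This comparison uses the same astrocyte libraries as the first. All 15 subunits higher in mKate2- cells were also among the 20 higher in mKate2+ cells, and 13 of them among the 14 without replicate 2. Of the 11 lower in mKate2- cells, 5 were called lower in mKate2+ cells and 7 without replicate 2, among them Ndufb11 and Ndufv3. Complex V had 7 of 16 subunits higher and 0 lower in mKate2+ cells, with 6 higher without replicate 2. Atp5g3 was at 319, 581 and 355 CPM in mKate2+ replicates 1 to 3 (log2 fold change 1.33 ± 0.24, adjusted P = 0.00244, edgeR, and 1.03 without replicate 2). Cox7b was at 55.9, 191 and 61.0 CPM and Cox8a at 121, 409 and 130 CPM, so their log2 fold changes of 1.39 ± 0.45 and 1.37 ± 0.46 fell to 0.60 and 0.57 without replicate 2. The Cox8a call was lost after removal of the exonic length trend (0.77, adjusted P = 0.0618, edgeR) or the transcript length trend (0.62, adjusted P = 0.0676). That of Cox7b was lost after removal of the GC trend (1.17, adjusted P = 0.0692, edgeR). Ndufb6, of the complex I membrane arm, was at 1.25 ± 0.40 (adjusted P = 0.0290, edgeR) and 0.57 without replicate 2. Its call was lost after removal of the exonic length trend (0.67, adjusted P = 0.0593, edgeR) or the transcript length trend (0.59, adjusted P = 0.0630).

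By edgeR, no subunit met the criteria of the study between mKate2+ and mKate2- cells (fold above 1.5, unadjusted P below 0.05 and count above 50). The count was read here as the mean normalized count, and the criteria, given by the study for upregulated genes, were applied in both directions. They were met by 0.194% of genes as higher and 0.169% as lower. At an adjusted P below 0.05, 0 of 11854 genes were called by edgeR (0%), and an unadjusted P below 0.05 was reached by 0 of the 78 subunits and 2.03% of all genes. By the same criteria DESeq2 called 3 subunits higher, beside 0.523% of all genes. The smallest P was that of Atp5k, the e subunit of ATP synthase (unadjusted P = 0.0520, adjusted P = 0.923, edgeR). Atp5k was at 17.6, 10.4 and 13.3 CPM in mKate2- cells and 15.0, 69.0 and 17.0 CPM in mKate2+ cells, which is 1 high library beside 5 low ones. The next were Cox8a, Cox6a1, Uqcrq and Ndufa12, with log2 fold changes of 0.97, 0.85, 0.88 and 0.78. Without mKate2+ replicate 2 they were 0.15, 0.13, 0.15 and 0.12, and that of Atp5k was 0.21. By edgeR no subunit met the criteria then either, beside 0.0508% of genes higher and 0.136% lower. The count rose where another library was left out and replicate 2 kept, to 47 higher without mKate2+ replicate 1 and 33 without replicate 3, beside 2.63% and 1.97% of all genes. It was 37 without a filter on low counts, beside 0.881%.

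The median log2 fold change of the 78 subunits between the tumor groups was 0.51, against 0.00 for all genes, and 76 had a positive value. The exceptions were Ndufs1 (-0.05) and Uqcrc2 (-0.02). Without replicate 2 the median was 0.04, 59 were positive, and the values ran from -0.12 (Cox7b) to 0.21 (Atp5k). The groups did not overlap for 3 subunits, Ndufa9, Sdha and Cox8a, all higher in mKate2+ cells, and 0 were lower, beside 4.63% and 4.56% of all genes. Ndufa9 was at 109, 116 and 110 CPM in mKate2- cells and 117, 156 and 118 CPM in mKate2+ cells.

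**Figure D3:**
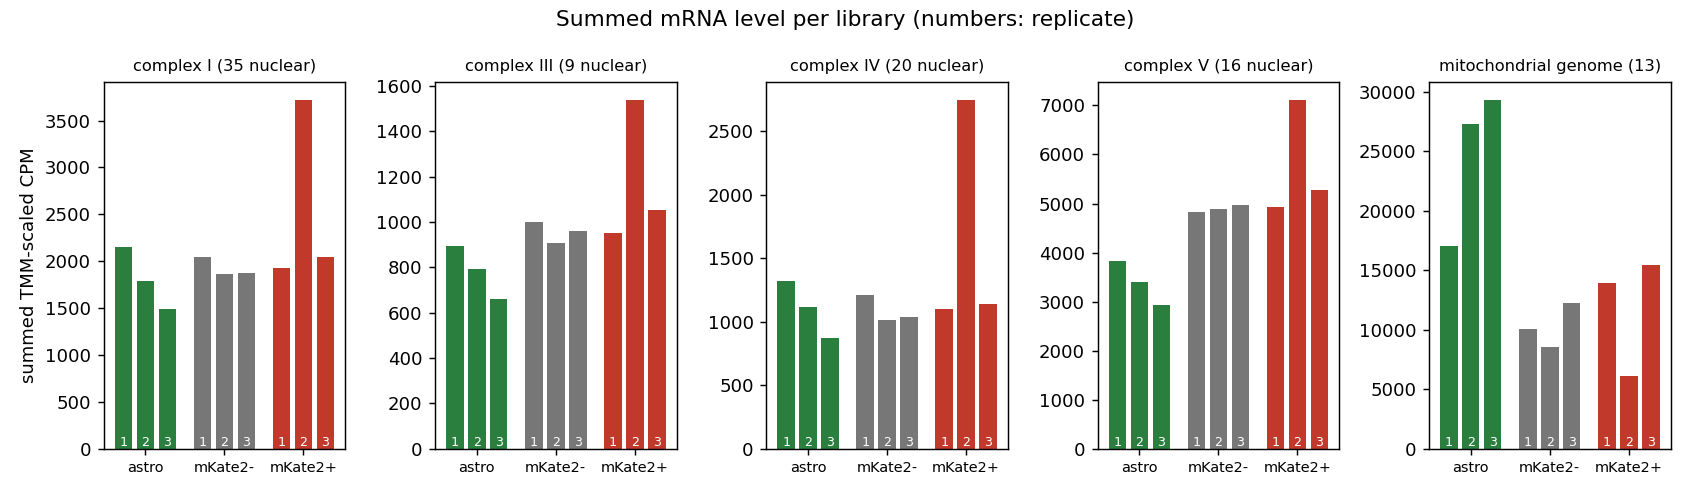
Summed TMM-scaled CPM of the nuclear subunits of complexes I, III, IV and V and of the 13 mRNAs of the mitochondrial genome, with 1 bar per library and the replicate number at its foot. For the nuclear sums the bar of mKate2+ replicate 2 is the tallest, and for the mitochondrial genome it is the shortest of the 9.

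The excess in mKate2+ replicate 2 went with transcript length. Subunit transcripts were short, with a median principal transcript of 824 bases against 3101 for expressed protein-coding genes, and 60.5% of them were at most 1000 bases long against 5.21%. The level in that library over the mean of the other 5 SB28 libraries had a median log2 ratio of 1.15 over the subunits and -0.01 over all genes. For principal transcripts up to 600 bases, the median was 1.65 over 17 subunits and 1.38 over all 98 coding genes of that length. Over 600 and up to 1000 bases it was 1.22 over 27 subunits and 0.64 over 495 genes, and over 1500 and up to 2500 bases 0.36 over 14 subunits and 0.09 over 2473 genes. Spearman's rho between transcript length and this ratio was -0.71 over the 78 subunits and -0.56 over 11051 coding genes, as a description across genes of the same libraries. The median of the subunits lay above that of all genes in each length class. Atp5g1 and Ndufb2, with the longest principal transcripts, had ratios of 1.15 and 1.44 and were the only 2 subunits over 4000 bases. Where annotated transcripts ranked equally, the longest was taken as principal. These 2 lengths may therefore exceed those of the mRNAs present in the cells, which was not tested. After a trend with exonic length was removed from every library, the median log2 fold change between mKate2+ and mKate2- cells was 0.36, with 74 of 78 positive. With a trend in principal transcript length removed instead, it was 0.26. Cytosolic ribosomal proteins, a set of 43 short abundant mRNAs, had a median of 0.56 between the tumor groups and 0.03 without replicate 2.

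**Figure D4:**
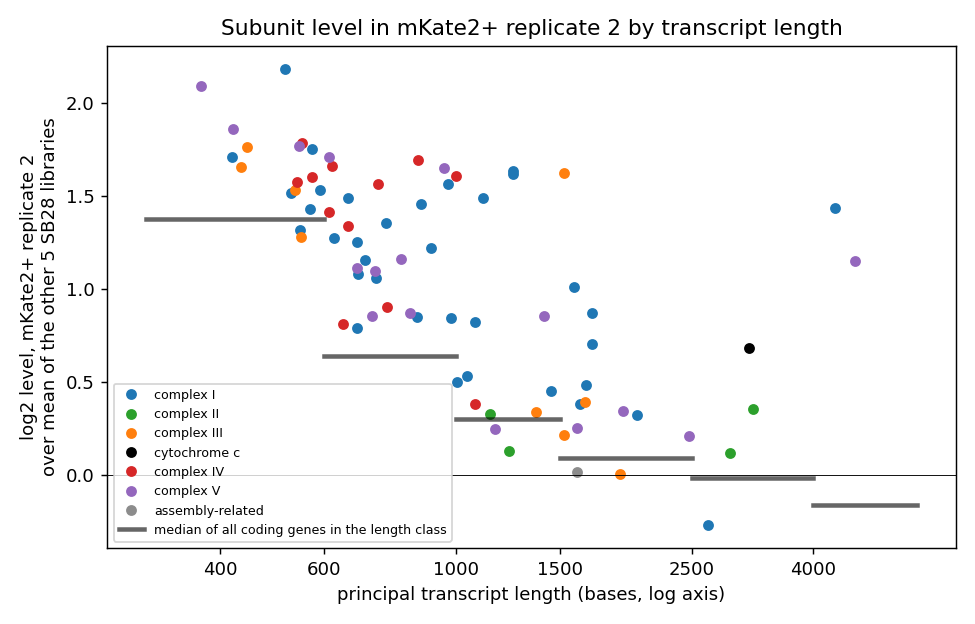
Log2 level in mKate2+ replicate 2 over the mean of the other 5 SB28 libraries for each of 78 subunits, against the length of the principal transcript in bases on a log axis, colored by complex. Black lines are the medians of all protein-coding genes in each length class, from 1.38 in the shortest to -0.16 in the longest, and most subunits lie above the line of their class.

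Partners of the subunits gave other patterns. The mRNAs of the mitochondrial genome encode the remaining subunits, and all 12 tested were lower in mKate2- cells than in astrocytes (median log2 fold change -1.39, beside 33.8% of all genes lower) while the nuclear subunits had a median of 0.07. Of the 13 mRNAs, 12 passed the filter against astrocytes and 9 between the tumor groups. Some thus entered the tests through the astrocyte libraries, the group in which they were higher, which limits what the count of lower ones shows. The summed level of the 13 was 17059, 27339 and 29341 CPM in astrocytes, 10065, 8561 and 12228 CPM in mKate2- cells and 13918, 6109 and 15429 CPM in mKate2+ cells. The groups did not overlap against astrocytes, and 5 of 12 were called lower in mKate2+ cells, both with and without replicate 2, beside 32.1% and 29.9% of all genes. The mt-Co1 mRNA was at 9765, 14669 and 16383 CPM in astrocytes and 5530, 4906 and 6485 CPM in mKate2- cells (log2 fold change -1.34 ± 0.23, adjusted P = 0.00136, edgeR). Several others, such as mt-Co2 and mt-Co3, were at only 0.466 to 2.56 CPM in astrocytes and mKate2- cells, so their values rest on few counts. The study counted unique hits per gene, and values so far below mt-Co1 may not be the levels of these mRNAs, which was not tested. The count of 12 lower mRNAs and their median give such genes the same weight as mt-Co1.

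Assembly factors, which build the complexes without staying in them, are read here beside the 29.3% of all genes called higher and 33.8% called lower in mKate2- cells. For complex V all 4 were higher in mKate2- cells (median 0.77), led by Atpaf1, Tmem70 and Fmc1. For complex I, 7 of 14 were higher and 2 lower, with Ndufaf5 at 0.93 ± 0.15 and Ndufaf3 at -0.98 ± 0.24. For complex IV, 6 of 22 were higher and 3 lower, with the heme A enzyme Cox15 at 1.10 ± 0.10 and Higd2a at -1.20 ± 0.17. The share higher for complex IV was near that of all genes. For complex III, 2 of 6 were higher and 1 lower, and for complex II 2 of 4 were higher and 1 lower. That one was Sdhaf4, which helps to mature SDHA, at 15.9, 10.05 and 9.98 CPM in astrocytes and 2.49, 3.78 and 2.93 CPM in mKate2- cells (log2 fold change -2.03 ± 0.28, adjusted P = 0.000485, edgeR). It was the factor list member with the largest fall, beside the fall of Sdha itself. Ndufab1, the acyl carrier protein of complex I, was not called, and Atpif1, the inhibitor of ATP synthase, was at -0.42 ± 0.15 in mKate2- cells (adjusted P = 0.0443, edgeR).

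Of 11 regulators of mitochondrial biogenesis, 4 were higher and 1 lower in mKate2- cells, beside the same 29.3% and 33.8%. Ppargc1a, the coactivator PGC-1alpha, was at 20.6, 17.5 and 22.4 CPM in astrocytes and 0.260, 0.114 and 0.333 CPM in mKate2- cells (log2 fold change -6.50 ± 0.35, adjusted P = 8.83e-06, edgeR). It passed the filter on low counts only through the astrocyte libraries, the group in which it was higher. Its relatives Ppargc1b (log2 fold change 2.75 ± 0.42) and Pprc1 were higher. Ppargc1b was at 0.554 to 1.82 CPM in astrocytes and 8.39 to 10.6 CPM in mKate2- cells, and Pprc1 at 40.0 to 52.5 and 118 to 161 CPM. The DNA-binding factor Nrf1 (0.67 ± 0.13) and the GABP subunit Gabpb1 (0.67 ± 0.13) were higher, and Tfam, Gabpa, Yy1 and Esrra were not called. Among 11 hypoxia-responsive genes tested, mKate2- cells had 4 higher and 3 lower, shares near those of all genes. Between mKate2+ and mKate2- cells, 0 genes of the assembly factor, regulator and hypoxia lists passed an adjusted P value of 0.05.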

How the data were processed

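The deposited counts of reads per gene were made by the authors, whose processing notes name Trimmomatic 0.36, STAR 2.5.2b, featureCounts of Subread 1.5.2 and the build GRCm38; the values carry no normalization, and the annotation release and strand setting are not given in the sources used here. The sort gates in the labels give the CellTrace Violet stain to tumor cells and the paper to astrocytes, so libraries were taken by name. Names, positions and lengths came from GENCODE M21 (48970 of 49315 gene IDs matched). Without a known strand setting, reads of a subunit and of an overlapping opposite gene cannot be told apart. Those with the longest exonic overlap were Ndufb5 with Mrpl47 (616 bases), Uqcrc2 with Pdzd9 (504) and Ndufs1 with Ino80dos (489).

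R 4.3.3 and edgeR 4.0.16 were used. Each pair of groups was fitted with TMM scaling and the quasi-likelihood test on genes above 1 CPM in at least 2 of its 6 libraries, with Benjamini-Hochberg adjustment over all genes tested. The smallest differences between replicates were far above counting noise (chi-square per degree of freedom 17.3 or more), so 3 libraries were kept per group. On simulated data, 196 of 200 changes of 1 on the log2 scale were recovered among 13127 genes for mKate2- cells against astrocytes, with 6 false calls. For mKate2+ cells against astrocytes 200 of 200 were recovered among 13058 genes with 10 false calls. Between tumor groups it was 198 of 200 among 11779 with 15. In the measured libraries, mKate2+ replicate 2 stood at a chi-square per degree of freedom of 148 from replicate 1 and 134 from replicate 3. Atp5k, with a measured log2 fold change of 1.29 ± 0.57 between tumor groups, was not called (adjusted P = 0.923, edgeR). Recovery with a library as far apart as mKate2+ replicate 2 was not tested. These recovery counts therefore do not show how many 2-fold changes could be called in comparisons that include it. Standard errors are the log2 fold change divided by the root of the F statistic. Low counts limit the precision of Cox4i2 and Cox7a1, and the spread of 3 replicates that of the rest.

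The subunits and gene lists were chosen with earlier results of these data known. Named were the core subunits, the paralog families, in each comparison with astrocytes the 5 called subunits furthest in each direction, the 5 smallest P values between tumor groups, subunits not expressed, of other lists 3 genes per direction ranked by adjusted P value, and cell type markers; other genes were named after their values were seen. Alternatives covered DESeq2 1.42.0, upper-quartile scaling, no filter, a minimum of 10 counts per library, 1 fit of the 9 libraries together, a replicate block, length and GC trends (loess, span 0.3) and each library left out. The transcript length trend, and the block with the length trend, were added after seeing the data. A subunit named by the rule is not reported here.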

Additional observations from a re-analysis of the deposited data

How the results depend on the processing

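Cycs, Cyc1, Atp5a1 and Atp5g3 stayed called higher, and Cox6b2, Cox4i2 and Cox7a1 lower, in both tumor groups under every alternative that could test them. With at least 10 counts in every library none of these lower ones could be tested. Other counts of calls moved. In mKate2- cells against astrocytes, a fit to all 9 libraries called 9 subunits higher and 7 lower (29.9% and 34.2% of all genes), removal of the gene-length trend 17 lower (34.4%), removal of the principal transcript length trend 29 lower (34.9%), and at least 10 counts in every library left 1 lower beyond 2-fold (Ndufb11). Leaving out 1 library gave 10 to 24 higher and 7 to 17 lower, beside 23.9% to 31.7% and 28.7% to 34.7% of all genes, with 1 to 2 and 2 to 4 beyond 2-fold; without astrocyte replicate 3, 17 were lower (33.4%). In mKate2+ cells against astrocytes, no filter gave 34 higher (14.4% of all genes) and 17 beyond 2-fold, at least 10 counts in every library 2 lower (28.6%) and 0 beyond 2-fold, the gene-length trend 5 higher beyond 2-fold, and the principal transcript length trend 13 higher (30.9%) and 2 beyond 2-fold. Leaving out 1 library gave 8 to 29 higher and 3 to 7 lower, beside 22.5% to 27.7% and 27% to 32% of all genes, and 2 to 21 higher and 2 to 3 lower beyond 2-fold; without astrocyte replicates 2 and 3, 8 and 9 were higher (23.6% and 26.4%).

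Between mKate2+ and mKate2- cells, subunits called higher numbered 3 by DESeq2 (0.523% of all genes), 37 without a filter (0.881%), 1 with at least 10 counts (0.217%), 4 with all 9 libraries (0.305%) and 1 with either length trend removed (0.101%). Leaving out 1 library gave 0 to 47 higher and 0 lower: 47 without mKate2+ replicate 1 (2.63% of all genes), 33 without replicate 3 (1.97%) and 0 without replicate 2 (0.0508%). The cause was not tested.

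The study sorted the groups from 3 co-cultures, but whether equal numbers mark the same co-culture is not given in the sources used here. Deviations of same-numbered libraries from the group means correlated at -0.15 to 0.25, only some pairs above 0.1, so the block was kept as an alternative. With replicate number as a block, the median log2 fold changes were 0.08, 0.49 and 0.42 for mKate2- and mKate2+ cells against astrocytes and between tumor groups. Among named subunits the block ended the calls of Sdha (-0.38, adjusted P = 0.0647), Atp5b (0.48, adjusted P = 0.0539) and Sdhd (0.40, adjusted P = 0.0591) in mKate2+ cells and of Sdhd (0.31, adjusted P = 0.0706) in mKate2- cells, and it added Cox8a in mKate2- cells and Atp5g2 and Ndufa4 in mKate2+ cells, all by edgeR. Without replicate 2, Atp5b (0.38, adjusted P = 0.0734) and Sdhd (0.37, adjusted P = 0.0591) were not called in mKate2+ cells either, by edgeR. The block and the gene-length trend together left 4 subunits higher beyond 2-fold in mKate2+ cells against astrocytes.

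Of the log2 fold changes of named subunits, 36 of 571 values over 16 alternatives changed sign in mKate2- cells against astrocytes, in 13 of 36 subunits. In mKate2+ cells against astrocytes 33 of 555 did, in 11 of 35, and between tumor groups 18 of 544, in 10 of 34. For mKate2- cells against astrocytes, with upper-quartile scaling, Cox4i1 was at -0.00065, Cox5a at -0.057, Sdhb at -0.019, Uqcrc2 at -0.014 and Uqcrfs1 at -0.051. With at least 10 counts in every library, Cox5a was at -0.052, Sdhb at -0.014, Uqcrc2 at -0.011 and Uqcrfs1 at -0.046. With the gene-length trend removed, Uqcrfs1 was at -0.0084. With the GC trend removed, Cox5a was at -0.23, Cox5b at 0.079, Ndufa4 at -0.0031, Ndufs1 at -0.12, Ndufs7 at 0.047, Ndufv2 at -0.10, Uqcrc2 at -0.083 and Uqcrfs1 at -0.0022. With the principal transcript length trend removed, Atp5g2 was at -0.0098, Cox4i1 at -0.18, Cox5a at -0.26, Ndufa4 at -0.041, Sdhb at -0.093 and Uqcrfs1 at -0.082. With the block and the gene-length trend together, Uqcrfs1 was at -0.0091. Leaving out 1 library gave Cox4i1 -0.072 to 0.22, Cox5a -0.14 to 0.29, Cox5b -0.25 to 0.14, Cox6b1 -0.29 to 0.0032, Ndufs3 -0.33 to 0.022, Ndufs7 -0.49 to 0.051, Sdhb -0.061 to 0.18 and Uqcrfs1 -0.083 to 0.12. For mKate2+ cells against astrocytes, with upper-quartile scaling, Ndufs1 was at -0.021, Ndufs3 at -0.066 and Uqcrc2 at -0.040. With at least 10 counts in every library, Ndufs1 was at -0.0051, Ndufs3 at -0.048 and Uqcrc2 at -0.024. Without a filter, Sdhc was at 0.019. With the gene-length trend removed, Cox6a1 was at -0.28 and Cox7a2 at -0.026. With the GC trend removed, Ndufs1 was at -0.13 and Uqcrc2 at -0.066. With the principal transcript length trend removed, Cox4i1 was at -0.032, Cox5a at -0.12, Cox6a1 at -0.45, Cox7a2 at -0.25, Ndufs3 at -0.30, Ndufs7 at -0.21, Sdhb at -0.063 and Uqcrc2 at -0.0012. With the block and the gene-length trend together, Cox6a1 was at -0.36 and Cox7a2 at -0.10. Leaving out 1 library gave Cox6a1 -0.44 to 0.53, Cox6b1 -0.066 to 0.97, Cox7a2 -0.22 to 0.66, Ndufs3 -0.16 to 0.22, Ndufs7 -0.16 to 0.48, Sdhc -0.15 to 0.058 and Uqcrc2 -0.011 to 0.11. Between tumor groups, with the gene-length trend removed, Cox7a2l was at -0.0023, Ndufs1 at 0.011 and Sdhd at -0.059. With the GC trend removed, Uqcrc2 was at 0.0072. With the principal transcript length trend removed, Cox7a2l was at -0.014 and Sdhd at -0.023. With the block and the gene-length trend together, Ndufs1 was at 0.011 and Sdhd at -0.067. Leaving out 1 library gave Cox7a2 -0.038 to 0.87, Cox7a2l -0.013 to 0.20, Cox7b -0.12 to 0.99, Ndufa4 -0.036 to 0.88, Ndufs1 -0.11 to 0.036, Ndufs3 -0.016 to 0.29, Ndufs8 -0.019 to 0.29, Ndufv2 -0.040 to 0.43 and Uqcrc2 -0.066 to 0.024. Of these sign changes outside the left-out libraries, Ndufs3 in mKate2+ cells alone was called under the alternative.

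Isoform shares depended on the length. Without division by length, and then with principal transcript length, Cox6b2 made up 33.1% and 34.3% of COX6B in astrocytes, 0.327% and 0.345% in mKate2- cells and 0.498% and 0.526% in mKate2+ cells. For astrocytes, mKate2- and mKate2+ cells in turn, Atp5g1 was at 19.1%, 18.6% and 19.1%, then 3.50%, 3.40% and 3.50%. Atp5g2 was at 25.3%, 18.6% and 18.8%, then 30.0%, 21.9% and 22.2%. Atp5g3 was at 55.6%, 62.8% and 62.1%, then 66.5%, 74.7% and 74.3%. Without division by length, Cox7a2l was at 78.3%, 71.8% and 66.9% of COX7A, Cox7a1 at 0.472% in astrocytes and 0.109% in mKate2+ cells, and Cox4i2 at 1.08% of COX4 in astrocytes.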
